A study of Mus musculus with 20 samples.

Results

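Methylation was described for 7 mouse genes of inflammatory cytokine signalling: the ligands Tnf, Il10 and Tgfb1, and the receptor genes Tnfrsf1a, Tnfrsf1b, Il1r1 and Il6ra. Their CpGs were every listed position inside the annotated gene or within 1 kb on either side, on the mm10 (GRCm38) build. All 7 genes were measured, out of 29141 annotated genes with at least 1 listed CpG, and they held 330 of the 1253074 CpG positions listed at either age. Of these, 293 were listed at 13 months, 328 at 3 months and 291 at both. Some also lay inside another annotated gene: 8 CpGs of Il6ra in Gm46811 and 1 CpG of Tnfrsf1a in Plekhg6.

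DNA of microglia-enriched homogenate of mouse brain was read by reduced representation bisulfite sequencing, which samples the CpG-rich part of the genome. Microglia are the brain's own immune cells. HEM mice carried full-length wild-type human α-synuclein, which aggregates in Parkinson disease, as an X-linked transgene driven by the murine Thy-1 promoter, which is used to drive neuronal expression. WT mice were the controls, and all mice had the B6D2F1/J background, although 1 HEM library at 13 months (replicate 3) has no background label. At 13 months there were 8 HEM libraries and 4 WT ones, and at 3 months 4 of each. For WT at 3 months the series' text gives 3 mice where the labels give 4 libraries, and each of the 4 was used.

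TNF signals through the receptors encoded by Tnfrsf1a, which carries a death domain and is expressed by most cells, and Tnfrsf1b, which is more restricted to immune, endothelial and glial cells. Interleukin 10 and transforming growth factor beta 1 damp inflammatory responses of microglia, and the latter also maintains the microglial state. Il1r1 encodes the signalling receptor for interleukin 1, and Il6ra the ligand-binding chain of the interleukin 6 receptor. CpG-dense promoters are usually unmethylated in most cells, whereas CpGs in gene bodies are usually methylated.

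Libraries of an age listed the same CpGs, and mean methylation ran from 29.3% to 32.2%. The homogenate holds several cell types, so a changed share of one type and changed methylation within cells cannot be told apart. The 11 of 14 microglial marker genes with enough CpGs averaged between 40.6% and 54.4% per library, and methylation does not check their expression. WT replicate 1 at 13 months stood apart: it was the highest of its group for the microglial markers (53.5%, others 42.6% to 49.8%) and the highest of all 20 libraries for the 5 measured markers of other leukocytes (75.3%). It was also the lowest of the 20 for markers of neurons (17.8%) and of the oligodendrocyte lineage (39.1%). Within its group it was lowest for astrocyte markers (37.9%) and highest for vessel markers (54.5%). At 4 CpGs in Thy1, the gene whose promoter drives the transgene, the library labelled WT replicate 3 at 3 months read 38.9%, inside the range of the 4 HEM libraries of that age (37.4% to 52.6%), while the other 3 WT libraries read 83.9% to 89.5%. At 13 months the same CpGs read 31.8% to 89.8% in HEM and 79.1% to 85.2% in WT, and 4 of the 8 HEM libraries lay within or above the WT range, so this value does not separate the genotypes at that age. Several region, cluster and CpG differences that rest on these libraries are given with and without them. Other values, among them counts of CpGs by direction, include them wherever they belong to the groups compared.

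The promoters of 4 members carried listed CpGs and show where the unmethylated DNA of these genes lies. The 250 bases before the annotated start are printed 5′ to 3′ from RefSeq (GRCm38.p6), with every listed CpG in capitals. They are Tgfb1 at chr7:25686752-25687001 (plus strand), Tnfrsf1a at chr6:125349473-125349722 (plus), Il6ra at chr3:89913197-89913446 (minus) and the second of the 2 Il1r1 promoters at chr1:40266336-40266585 (plus).
Tgfb1: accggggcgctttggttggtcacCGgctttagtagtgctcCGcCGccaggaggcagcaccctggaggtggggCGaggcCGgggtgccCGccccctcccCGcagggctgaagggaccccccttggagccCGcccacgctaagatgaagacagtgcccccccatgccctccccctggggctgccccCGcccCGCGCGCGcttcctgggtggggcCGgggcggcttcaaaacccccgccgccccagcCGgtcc
Tnfrsf1a: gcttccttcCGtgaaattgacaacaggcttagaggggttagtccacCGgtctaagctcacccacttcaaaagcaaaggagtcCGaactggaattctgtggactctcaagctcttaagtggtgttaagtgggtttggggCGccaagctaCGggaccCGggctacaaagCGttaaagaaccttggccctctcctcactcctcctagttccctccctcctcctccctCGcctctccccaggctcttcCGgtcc
Il6ra: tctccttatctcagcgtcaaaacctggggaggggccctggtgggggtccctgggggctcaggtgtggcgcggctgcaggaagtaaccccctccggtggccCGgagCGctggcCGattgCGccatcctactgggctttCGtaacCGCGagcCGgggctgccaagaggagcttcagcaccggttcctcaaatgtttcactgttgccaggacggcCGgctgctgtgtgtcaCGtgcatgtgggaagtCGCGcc
Il1r1: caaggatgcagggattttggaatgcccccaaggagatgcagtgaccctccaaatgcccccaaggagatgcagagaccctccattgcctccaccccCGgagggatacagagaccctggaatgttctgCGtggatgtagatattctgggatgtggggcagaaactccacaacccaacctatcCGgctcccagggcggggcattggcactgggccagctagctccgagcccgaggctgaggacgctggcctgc

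In windows that reach 50 bases past the start, the Tgfb1 promoter held 30 CG pairs; 11.7% of the 32851 promoters in the table held as many or more, and their median was 7. GGGCGG, the core of the Sp1 motif, was searched on both strands and occurred 6 times in Tgfb1, against at least once in 35.7% of all promoters. The Il6ra window held 25 CG pairs, the second Il1r1 window 14 and the Tnfrsf1a window 11. All 71 listed positions in these windows fell on a CG of the reference. No CpG was listed in the promoter windows of Tnf, of Tnfrsf1b or of the first Il1r1 start, and Il10 is named without a promoter here.

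Methylation was near 0 in every group in 3 of the 4 printed promoters. Listed positions averaged 0.334% in Tgfb1, 0.212% in Il6ra and 0.722% in Tnfrsf1a over the windows. Around the Tgfb1 start, 36 CpGs at -227 to 182 bp averaged 0.3% in HEM and 0.4% in WT at 13 months. At -149 to 518 bp from the Il6ra start lay 66 CpGs, of which the 52 listed at both ages averaged between 0.2% and 0.3% in the 4 groups. At Tnfrsf1a, 31 CpGs lay at -407 to 386 bp from the start, and the 28 listed at both ages averaged 0.4% to 1.5%. The second Il1r1 promoter was higher: its 3 listed CpGs averaged 8.7% and 8.5% in HEM and WT at 13 months, and 5.4% and 6.4% at 3 months.

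**Figure D1:**
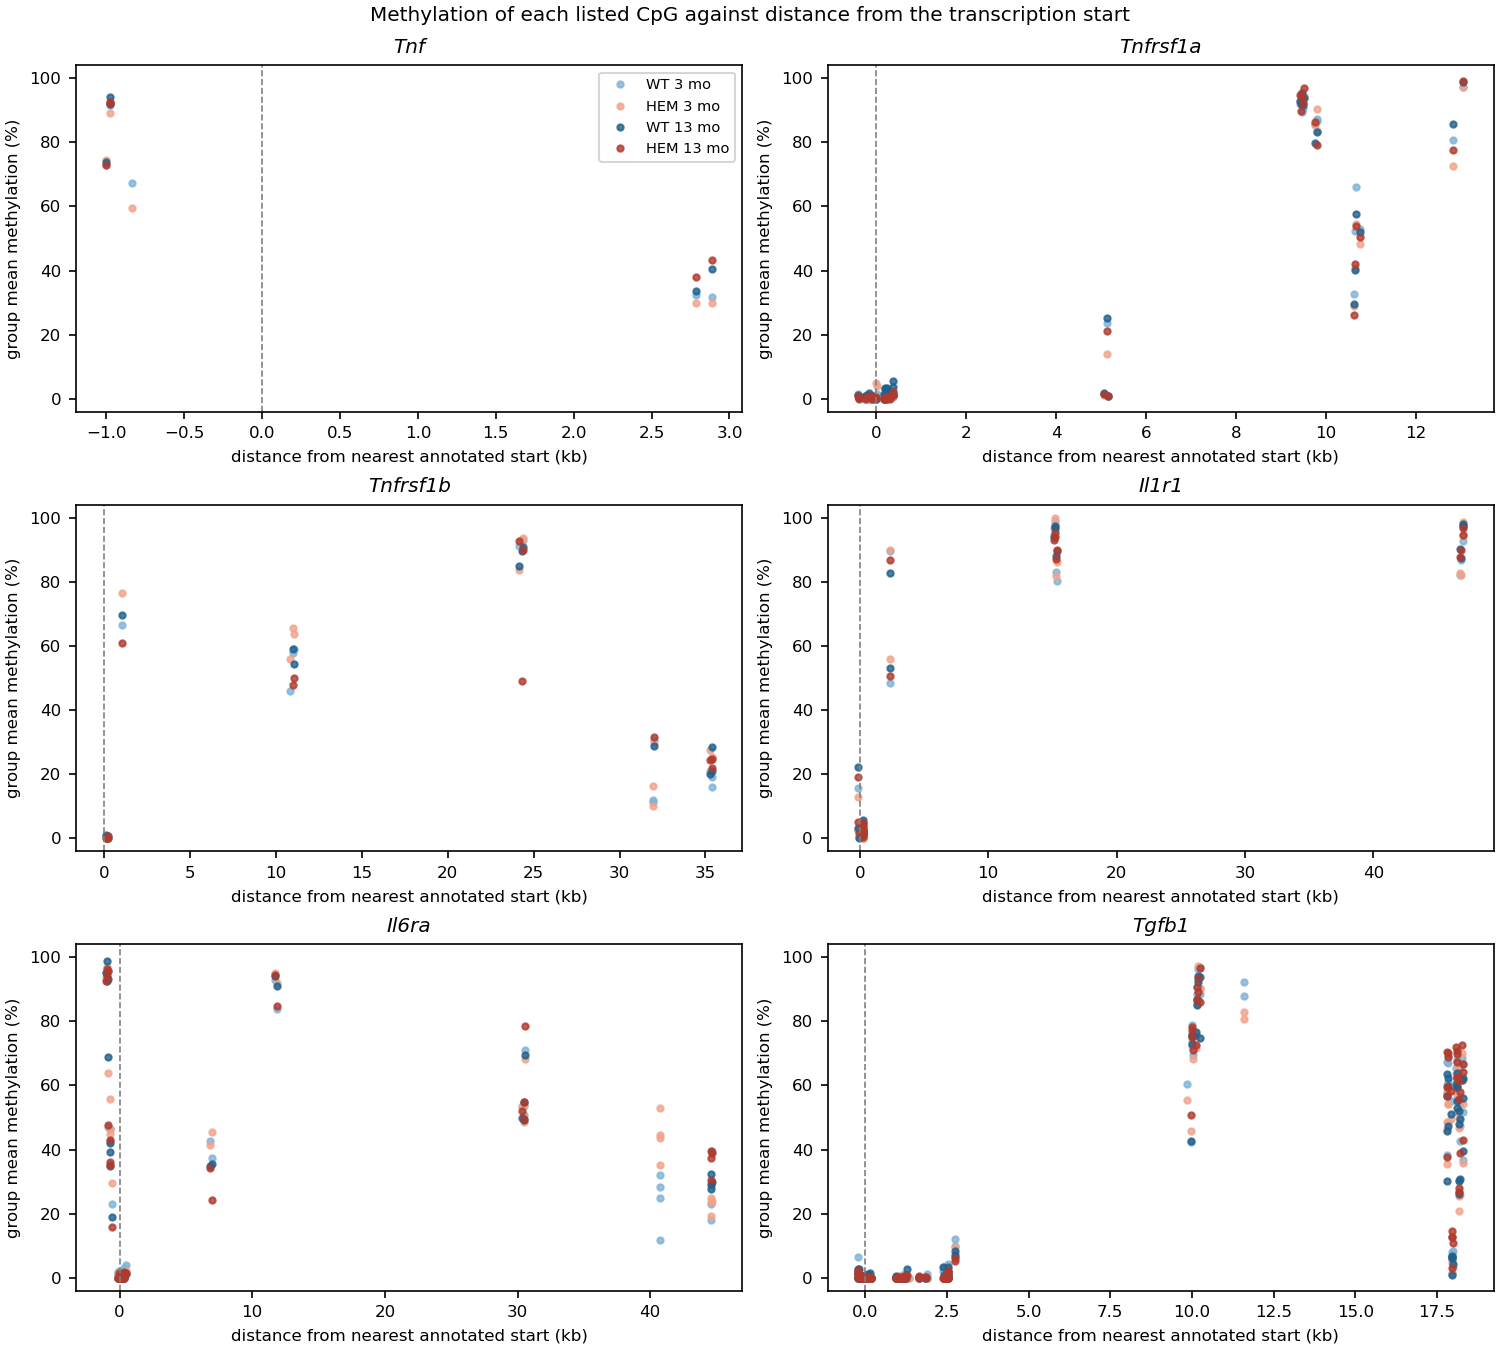
Group mean methylation (%) of each listed CpG against its distance in kb from the nearest annotated start, for the 6 genes with a start in the table, with negative values upstream and a dashed line at the start. The 4 colours are the 4 groups; CpGs beside the starts of Tgfb1, Tnfrsf1a, Il6ra and Tnfrsf1b lie near 0%, and levels rise away from them.

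Away from the starts, levels varied between the genes and between stretches of 1 gene. Over all 293 positions at 13 months, 65.5% of member CpGs averaged under 20%, 22.5% lay between 20% and 80%, and 11.9% were over 80%. The same shares over all CpGs of that age were 60.4%, 16.6% and 23.0%. Tgfb1 stayed at or under a block mean of 1.3% out to 2752 bp from its start, reached 78.8% to 80.6% over the 12 CpGs listed at both ages at 9841 to 10240 bp, and had intermediate levels at its 3′ end. In Il1r1, 5 CpGs at 15155 to 15341 bp from the second start averaged 90.6% to 93.1%. The 5 CpGs of Il10, all inside the gene, ranged between 22.3% and 47.8% as means over the libraries of an age, with none near either end of the scale. Tnf had 6 listed CpGs, all in its flanks: 2 beyond its 3′ end at 29.8% to 40.6%, and 4 upstream, at -1000 to -838 bp from the start, of which the 3 listed at both ages averaged 85.3% to 86.7%.

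**Figure D2:**
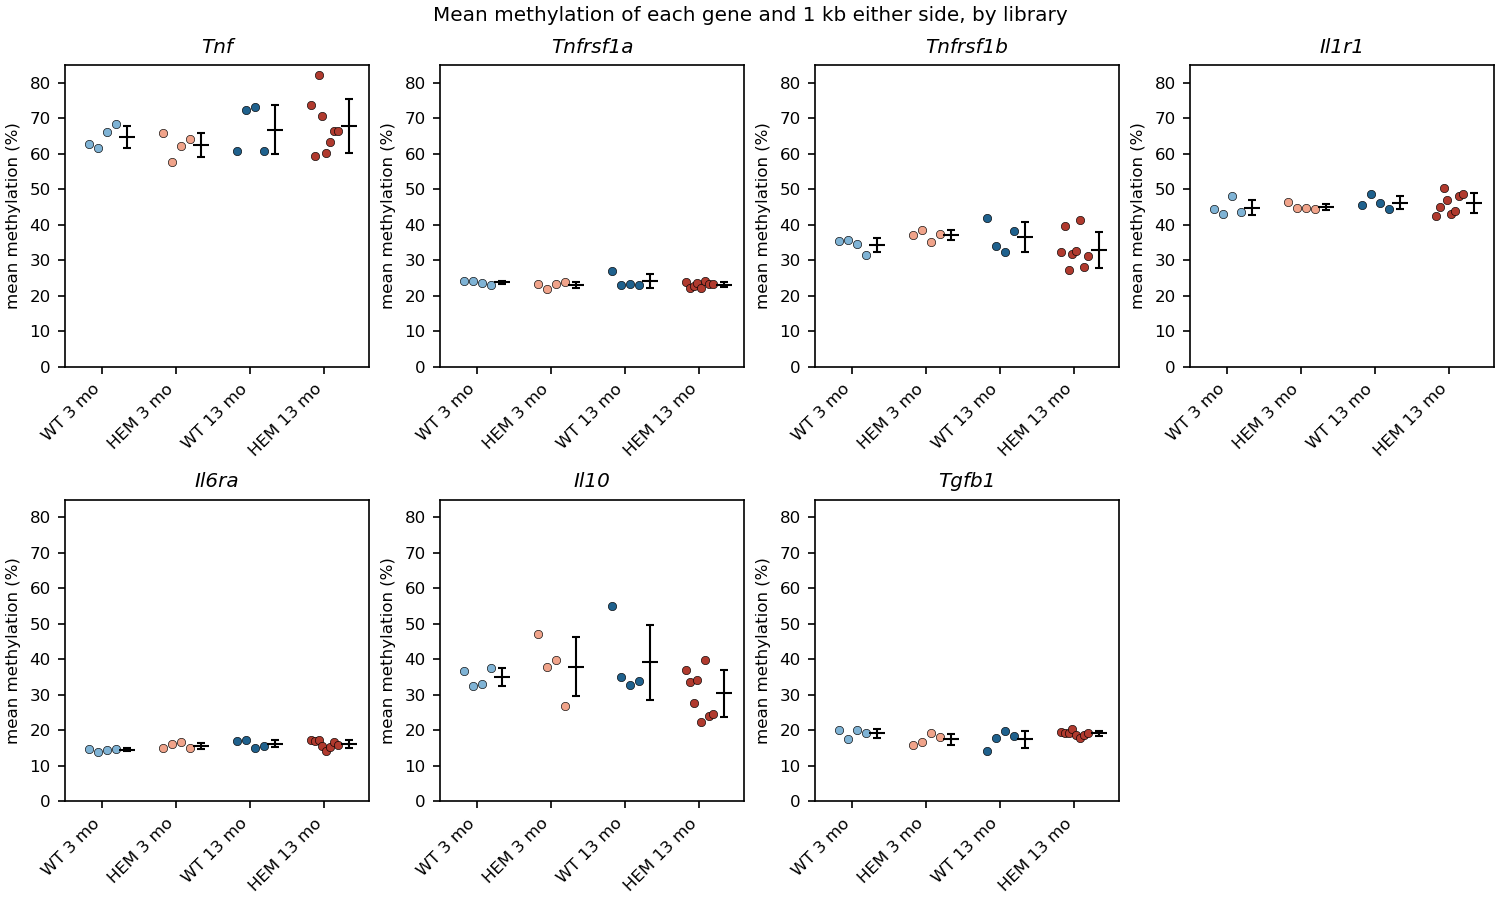
Mean methylation (%) over each gene and 1 kb either side, 1 point per library in 4 groups; the bar and whiskers beside each group are its mean and SD. Groups overlap in most panels; the WT 13-month library at 55.0% in the Il10 panel lies above the rest of its group.

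The first question was whether these genes differ in methylation between HEM and WT mice at 13 months. No member passed the test fitted over all features with limma, a moderated linear model, which called a feature at an adjusted p under 0.05 with a difference of at least 10 points for a CpG or 5 points for a gene region. None of the 102 tested member CpGs was called, against 0.000881% of all CpGs, and none of the 7 regions, against 0% of all regions. At an unadjusted p under 0.05 there were 6 member CpGs of 102 (5.88%, against 5.82% of all CpGs) and 0 of 7 regions (4.05% of all). Tgfb1 CpGs were higher in HEM at 34 positions and lower at 7, and those of the other 6 members higher at 26 and lower at 35; 49.1% of all CpGs were higher. The median difference of the member CpGs was 1.29 points, beside -0.10 over all CpGs. It was 6.84 points for the Tgfb1 CpGs and -0.97 points for those of the other 6 members.

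Of the ligands, Il10 showed the largest region difference. In WT mice its region read 55.0%, 35.0%, 32.6% and 33.9%, and in HEM mice it ran from 22.3% through a median of 30.6% to 39.8%. WT replicate 1 was above every HEM library and the other 3 lay within the HEM range. The group means were 39.1 ± 10.6% (SD, n = 4) in WT and 30.4 ± 6.60% in HEM (SD, n = 8), a difference of -8.73 points that was matched or exceeded in size by 0.864% of all regions. The Il10 mean rested on 4 CpGs, and the regions of that share were not matched to it for CpG number or level. The Il10 difference did not pass the limma test (adjusted p = 0.99996 over all regions), and without WT replicate 1 it was -3.44 points. Among the Il10 CpGs the one at position 131020796 of chromosome 1 differed most by p, at 38.1 ± 10.7% in WT (SD, n = 4) against 24.1 ± 9.17% in HEM (SD, n = 8). Its difference was -14.0 points (limma adjusted p = 0.850), and -8.68 points without WT replicate 1.

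Tgfb1 had a cluster of 29 CpGs of intermediate mean level at chr7:25704812-25705315, across the 3′ end of the gene. In WT mice at 13 months the cluster averaged 27.1%, 43.8%, 52.0% and 49.5%, and in HEM mice it ran from 44.3% through a median of 50.4% to 55.2%. Of the 4 WT libraries, 2 lay below the HEM range. The means were 50.2 ± 3.06% (SD, n = 8) and 43.1 ± 11.2% (SD, n = 4), and 28 of 29 CpGs were higher in HEM. The difference of 7.07 points did not pass the limma test over all clusters (adjusted p = 0.902; 0% of clusters were called) and was 1.74 points without WT replicate 1. Neighbouring CpGs share reads and libraries, so the 28 are not independent. The CpG of smallest p, at position 25704949, read 6.60 ± 5.02% in WT (SD, n = 4) and 14.6 ± 5.23% in HEM (SD, n = 8), 8.0 points higher (limma adjusted p = 0.819).

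One Tgfb1 CpG, at position 25696983 inside the gene, was the single member CpG whose groups did not overlap at 13 months (0.445% of all CpGs did not), and is named after its values were seen. It read 44.0%, 41.6%, 46.0% and 38.7% in WT, and 47.1% to 55.1% with a median of 50.5% in HEM. Tnf differed by 0.97 points over its region, with 59.3% to 82.1% in HEM and 60.8% to 73.3% in WT. Its direction changed to -1.01 points without WT replicate 1.

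Of the receptors, Tnfrsf1b differed by -3.67 points, with WT libraries at 41.9%, 34.0%, 32.4% and 38.3% and HEM libraries from 27.3% to 41.3%, median 32.0%. The groups overlapped (limma adjusted p = 0.99996 over all regions), and the difference was -1.92 points without WT replicate 1. The Tnfrsf1b mean was taken over 15 CpGs, among them the CpG at position 145222523 described below, which differed by -40.7 points. Tnfrsf1a differed by -0.99 points, with WT replicate 1 at 27.1% and the other WT libraries at 23.0% to 23.5%; without that library the difference was -0.00136 points. Il1r1 and Il6ra differed by -0.17 and -0.11 points, less than the SD within either group.

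A single CpG of Tnfrsf1b, at position 145222523 of chromosome 4 and 24347 bp from the start, varied widely among HEM mice at 13 months. The 8 HEM libraries read 28.3%, 85.2%, 77.6%, 24.2%, 43.3%, 96.9%, 32.9% and 3.1%. The 4 WT libraries of that age read 85.1% to 94.7%, and the 8 libraries at 3 months 87.1% to 97.7%. Of the HEM libraries, 5 lay below 50%, 77.6% was below every library of the other 3 groups, and 2 lay within their range. Means at 13 months were 48.9 ± 33.5% (SD, n = 8) and 89.6 ± 4.67% (SD, n = 4), a difference of -40.7 points (limma adjusted p = 0.837). The neighbour 12 bp away stayed between 79.1% and 97.6% in the same HEM libraries. Over the 20 libraries the CpG spanned 94.6 points, a range reached by 0.0649% of the CpGs listed at both ages.

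The CpG of Il6ra at position 89914097 of chromosome 3, upstream of the start, ranged over the whole scale in mice of both genotypes. It read 53.5%, 86.4%, 87.1%, 4.4%, 72.5%, 2.1%, 26.6% and 48.4% in HEM at 13 months and 84.1%, 100%, 0% and 90.9% in WT. At 3 months it read 55.4%, 60.7%, 94.0% and 45.1% in HEM and 93.8%, 47.5%, 46.9% and 0% in WT. Of the 20 libraries, 4 were under 10%, 9 between 20% and 80%, and 7 over 80%, and the ranges of all 4 groups overlapped. Only 0.0189% of the 1132579 CpGs listed at both ages ranged as widely. This and the Tnfrsf1b CpG were the 2 member CpGs of widest range, chosen after their values were seen.

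**Figure D3:**
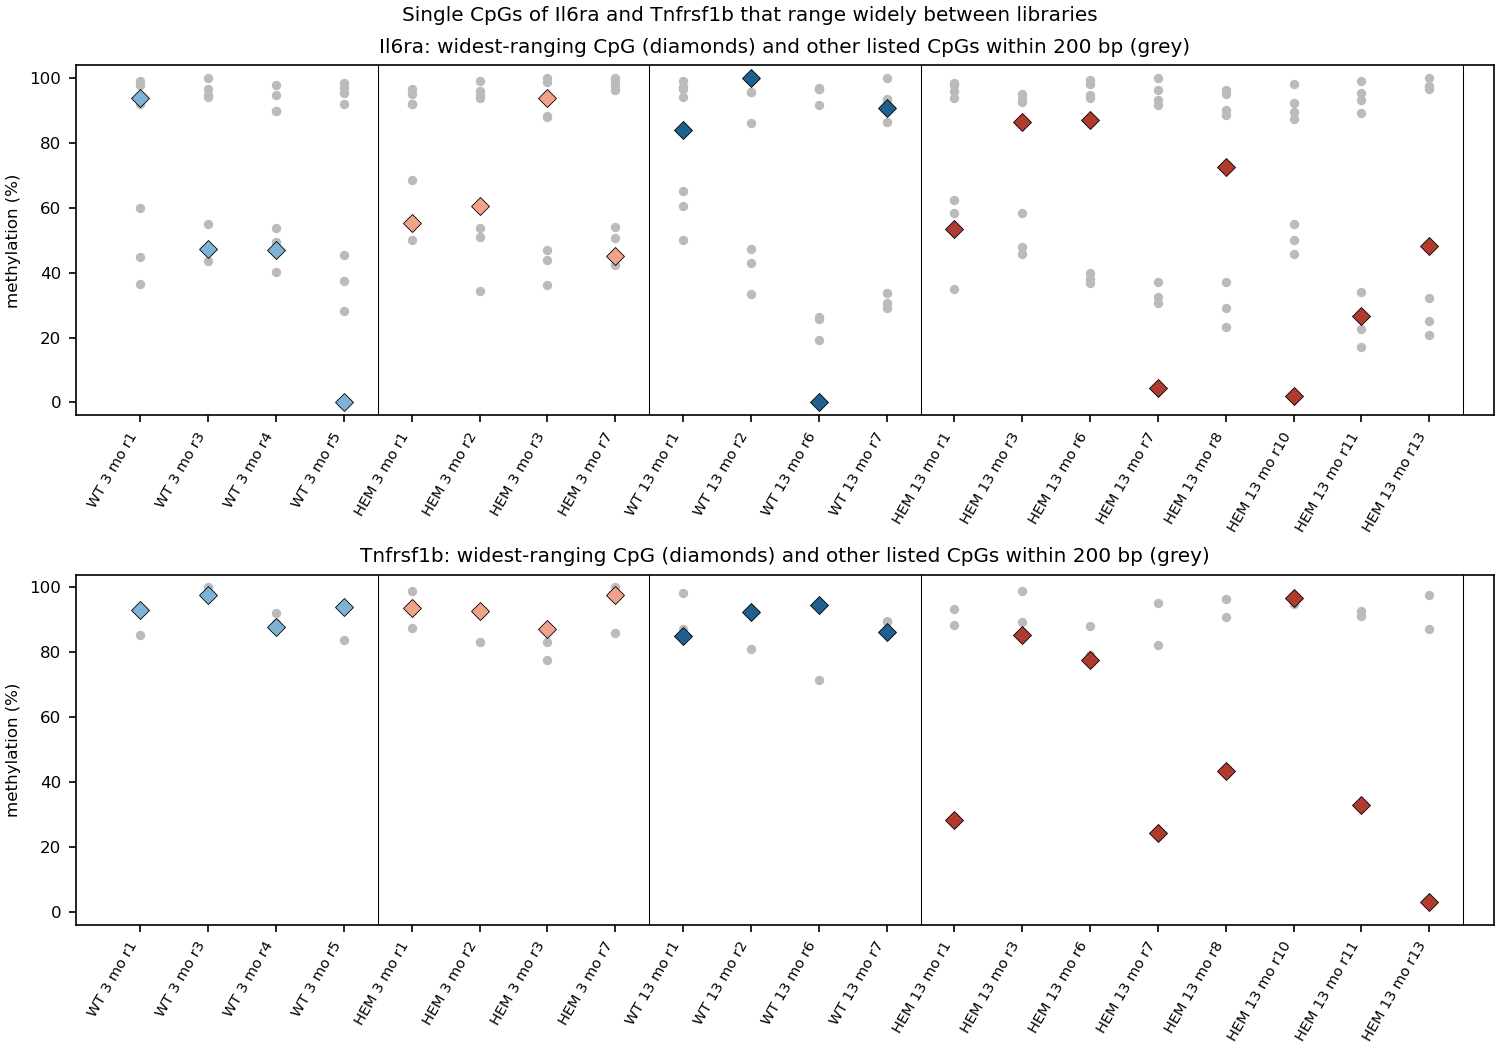
Methylation (%) in each library of the widest-ranging CpG of Il6ra (top) and of Tnfrsf1b (bottom) as coloured diamonds, with the other listed CpGs within 200 bp as grey points; r is the replicate number. The Tnfrsf1b diamonds drop below 50% in 5 HEM libraries at 13 months, and the Il6ra diamonds range from 0% to 100% in both genotypes.

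At 3 months the same genotype comparison also gave no member call. None of 111 tested member CpGs and none of 7 regions was called, against 0% of all CpGs and 0% of all regions. An unadjusted p under 0.05 was found at 6 member CpGs (5.41%, against 4.53% of all) and in 2 regions, those of Il6ra and Tnfrsf1b (4.03% of all). Groups did not overlap at 2 member CpGs (2.7% of all). Tgfb1 CpGs were lower in HEM at 39 positions and higher at 5, and those of the other 6 members lower at 29 and higher at 38; 49.6% of all CpGs were higher.

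Il6ra read 14.78%, 13.79%, 14.45% and 14.61% in the WT libraries and 14.81%, 15.96%, 16.57% and 15.04% in HEM, and these groups did not overlap, as in 2.31% of all regions. The means were 14.4 ± 0.434% (SD, n = 4) and 15.6 ± 0.817% (SD, n = 4). The difference of 1.19 points had an exact two-sided permutation p = 0.0286, the smallest that 4 against 4 allows, and a limma adjusted p of 0.9999 over all regions. The region included 4 CpGs at chr3:89872419-89872457 that were listed only at 3 months, where WT libraries read 12.6%, 15.4%, 17.5% and 51.7% and HEM libraries 25.8%, 56.9%, 57.2% and 36.8%. Over the CpGs listed at both ages the Il6ra difference was 0.38 points and the groups overlapped. Without the library labelled WT replicate 3 the regional difference was 0.98 points. In that cluster the CpG of smallest p, at position 89872440, read 11.8 ± 4.19% in WT and 35.3 ± 17.8% in HEM (SD, n = 4 each, limma adjusted p = 0.985). Its difference was 23.6 points, and 24.8 points without the library labelled WT replicate 3.

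Tnfrsf1b read 35.3%, 35.9%, 34.6% and 31.6% in WT and 37.0%, 38.5%, 35.3% and 37.5% in HEM at 3 months. One HEM library lay within the WT range. The difference of 2.76 points had a limma adjusted p of 0.9999 and was 3.27 points without the library labelled WT replicate 3. Il10 read 36.7%, 32.3%, 33.03% and 37.4% in WT, and 47.0%, 37.8%, 39.9% and 26.8% in HEM. The mean difference of 3.00 points became -0.0484 points without HEM replicate 1.

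The Tgfb1 3′ cluster had a negative difference at 3 months. It averaged 51.0%, 40.9%, 51.9% and 49.5% in WT and 33.9%, 37.7%, 50.6% and 45.7% in HEM, so 2 HEM libraries lay below the WT range. The difference was -6.35 points, with 26 of 29 CpGs lower in HEM (limma adjusted p over all clusters 0.993), -8.83 points without the library labelled WT replicate 3, and -3.65 points without HEM replicate 1. The groups did not overlap at 2 of its CpGs. At position 25705219 the WT libraries read 34.9%, 43.6%, 40.1% and 51.7% and the HEM libraries 18.4%, 22.0%, 33.6% and 29.5%, a difference of -16.7 points (limma adjusted p = 0.985). At position 25705187, HEM libraries were at most 58.7% and WT libraries at least 60.7%. Without the library labelled WT replicate 3, the differences at positions 25705219 and 25705187 were -16.4 and -18.5 points.

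**Figure D4:**
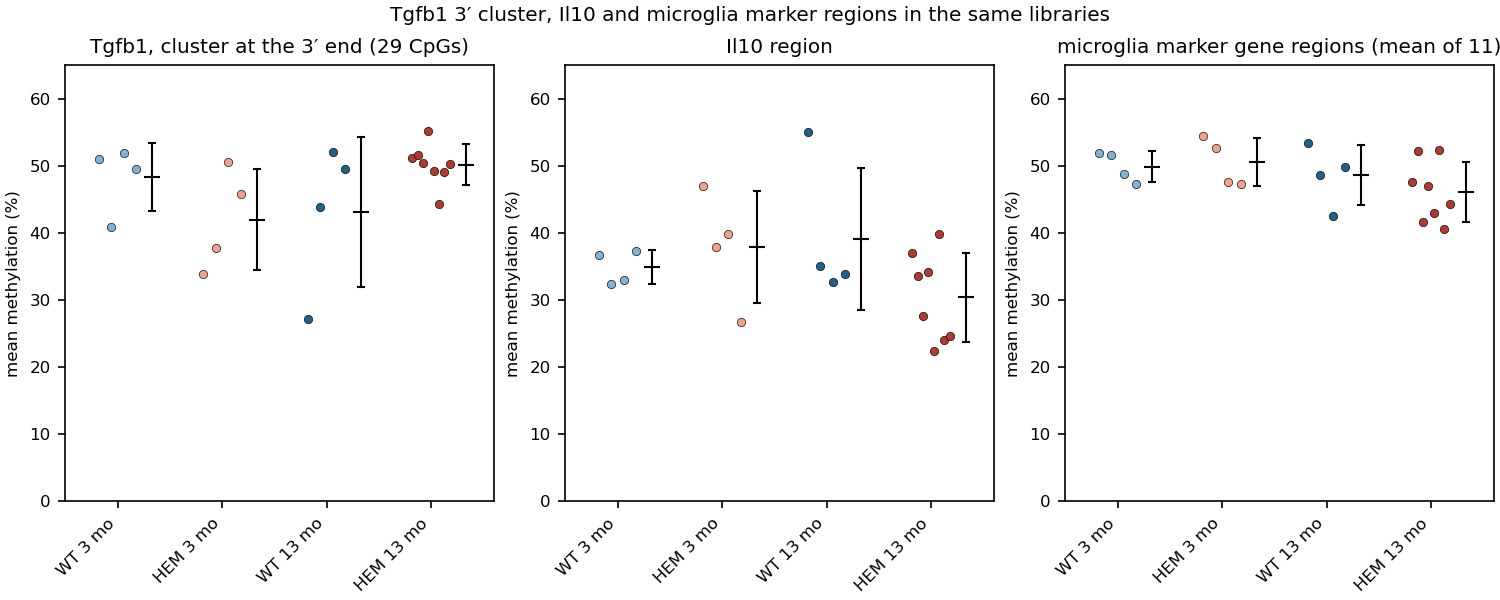
Mean methylation (%) per library of the Tgfb1 3′ cluster (left), the Il10 region (centre) and the 11 measured microglial marker regions (right), 1 point per library in the same order within a group; bars and whiskers are group mean and SD. The lowest Tgfb1 value (27.1%) and the highest Il10 value (55.0%) belong to WT replicate 1 at 13 months.

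The mean methylation of the microglial marker regions is given beside the Tgfb1 cluster for single libraries. At 13 months the markers were highest in WT replicate 1 (53.5%), where the cluster was lowest of the 20 libraries (27.1%). They were lowest in HEM replicates 11 (40.6%) and 6 (41.6%), where the cluster read 49.2% and 50.4%. WT replicate 6, the lowest WT library of that age for the markers (42.6%), had a cluster value of 52.0%. Of the 2 HEM libraries with the highest marker values of that age, replicate 10 (52.4%) had a cluster value of 44.3%, and replicate 3 (52.1%) one of 51.7%. At 3 months HEM replicate 1 had marker and cluster values of 54.4% and 33.9%. The WT libraries labelled replicates 1 and 3 had similar marker values (51.9% and 51.6%), and their cluster values were 51.0% and 40.9%. The part of cell composition in the Tgfb1, Il10 and Tnfrsf1b values was not tested.

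Age was compared within each genotype on CpGs listed at both ages. The libraries of the 2 ages were deposited as separate sets, so age and set cannot be told apart. In WT mice none of 99 tested member CpGs was called (0.0183% of all CpGs were), none of 7 regions (0.00518% of all) and no member cluster (0.00565% of all). None of the 99 had an unadjusted p under 0.05 (4.79% of all did), and 1, the Il6ra CpG at position 89901338, had groups that did not overlap (2.86% of all). It was higher at 13 months by 7.14 points (91.0 ± 1.56% against 83.9 ± 5.45%, SD, n = 4 each; limma adjusted p = 0.975). Regional differences ran from -1.34 points in Tgfb1 to 4.66 points in Il10. Without WT replicate 1 at 13 months they were -0.20 and -0.63 points.

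In HEM mice none of the tested member CpGs was called between ages (0.0305% of all CpGs were), the groups overlapped at each of them (1.02% of all CpGs did not overlap), and none of 7 regions was called (0% of all). An unadjusted p under 0.05 was reached by 15 CpGs (14.9%, against 10.4% of all) and by the regions of Tgfb1 and Tnfrsf1b (12.9% of all regions). Tgfb1 was 2.03 points higher at 13 months (limma adjusted p = 0.307) and Tnfrsf1b differed by -6.002 points (limma adjusted p = 0.368). Without HEM replicate 1 at 3 months these differences were 1.39 and -5.45 points. In the Tgfb1 3′ cluster the mean of each of the 29 CpGs was higher at 13 months. The cluster mean was 8.22 points higher (limma adjusted p over all clusters 0.326, with 0.00282% of clusters called). In WT mice 25 of these CpGs were lower at 13 months, with a cluster difference of -5.21 points, and 0.12 points without WT replicate 1 at 13 months. In HEM mice the cluster difference was 5.52 points without replicate 1 at 3 months, and 56.7% of all CpGs were higher at 13 months. The Tnfrsf1b difference includes the widely ranging CpG, where the age difference was -43.9 points (limma adjusted p = 0.377). The Il10 difference was -7.90 points (limma adjusted p = 0.474), and -3.92 points without HEM replicate 1 at 3 months. The comparisons of genotype and of age share groups, so their values are not independent.

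**Figure D5:**
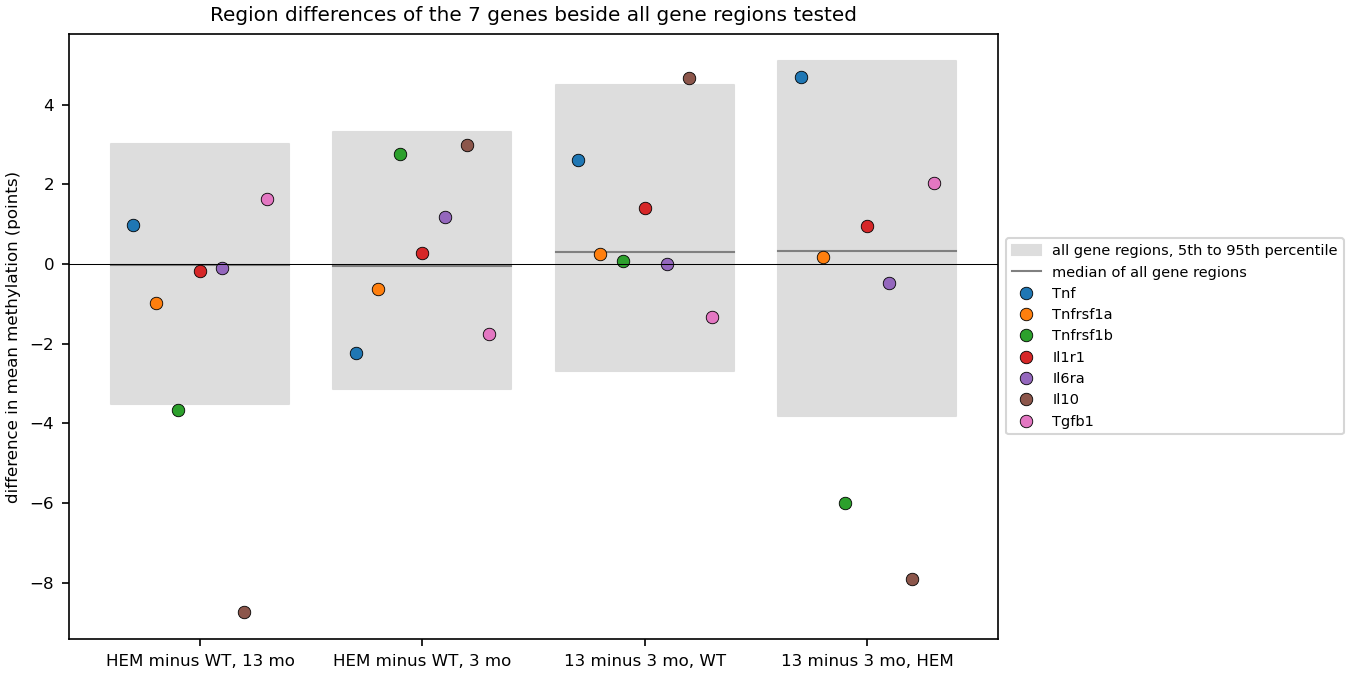
Difference in region mean methylation (percentage points) of each member in the 4 group comparisons, as coloured points; the grey box spans the 5th to 95th percentile of all tested gene regions and its line is their median. Il10 and Tnfrsf1b fall below the box in HEM against WT at 13 months and in 13 against 3 months in HEM. Il10 lies above the box in 13 against 3 months in WT. The Tnfrsf1b means include the CpG at position 145222523.

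An interaction term tested whether the difference between HEM and WT depended on age. No member CpG of 100 was called (0.000224% of all were), nor any region (0% of all). An unadjusted p under 0.05 was found at 8 CpGs (6.28% of all), of which 7 lay in Tgfb1. The Tgfb1 region gave 3.37 points (limma adjusted p = 0.903), 2.23 points without WT replicate 1 at 13 months and 4.02 points without the library labelled WT replicate 3 at 3 months. Its 3′ cluster gave 13.4 points with all 20 libraries (limma adjusted p = 0.779). In that cluster the 13-month genotype difference was 7.07 points, and 1.74 points without WT replicate 1.

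No gene of the wider signalling list was called between genotypes. Of 54 other cytokine, receptor and signalling genes, 37 had a testable region at 13 months. In HEM, 15 were higher (40.5%, against 48.8% of all regions) and 22 lower. None was called (0% of all regions), and 1 had an unadjusted limma p under 0.05 (4.05% of all regions did). That was Il10rb, the shared second chain of the interleukin 10 receptor, at 14.5 ± 1.02% in WT (SD, n = 4) and 12.9 ± 1.08% in HEM (SD, n = 8). Il10ra, the ligand-binding chain, was at 29.97 ± 3.69% in WT (SD, n = 4) and 26.7 ± 2.65% in HEM (SD, n = 8). The limma adjusted p over all regions was 0.99996 for Il10rb and for Il10ra. At 3 months 16 of 35 were higher (45.7%, against 46.9% of all regions) and 19 lower, and none was called (0% of all). None had an unadjusted limma p under 0.05 (4.03% of all regions did). The smallest p values were those of the chemokine genes Cxcl10 (-1.62 points) and Cx3cl1 (-1.08 points). The median difference of the list was -0.09 points at the older age, beside -0.02 points over all regions, and -0.02 points at the younger, beside -0.05. The list includes Lta, also on chromosome 17, whose region shares CpGs with the upstream flank of Tnf, so the values of Lta and Tnf are not independent.

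The gene regions closest in level to each member over the 20 libraries were listed by mean absolute difference, on CpGs shared by both ages and on another chromosome. Il10 was closest to P2rx1 and Rinl (3.37 and 3.76 points), with a median over 21773 regions of 28.5 points. Tgfb1 was closest to Fbxw8 and Paqr8 (0.676 and 0.692 points) and Tnfrsf1a to Itga6 and Gm11651 (0.696 and 0.707 points). Il1r1 was closest to Arhgef1 and Stpg1, Il6ra to Gm31166 and Ube2o, Tnfrsf1b to Pnpla2 and Gm39150, and Tnf to LOC115486521 and C1qtnf5, at 0.571 to 2.88 points. The likeness is one of level and carries no statement about function.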

How the data were processed

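The authors' deposited files give, per sample, the percent methylation at each CpG of mm10, with no read counts, so read depth is unknown and no counting interval could be given. Aligner settings and versions are not given in the sources used here. Bowtie2 and methylKit were used, per the submitters' processing notes. A series table with 21 value columns was not used. The 7 members and all gene lists were chosen with earlier results of these data known.

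Each CpG, each gene region (annotated gene and 1000 bp either side, at least 3 CpGs) and each cluster (at least 3 CpGs at most 200 bp apart, added after seeing the data) entered a limma fit (version 3.58.1, R 4.3.3) after the transform log2((percent + 1) / (100 - percent + 1)). Features with a mean of 5% to 95% entered, with Benjamini-Hochberg adjustment over all of them. The scripts were tested on simulated data. Calls needed an adjusted p under 0.05 and 10 points (CpGs) or 5 points (regions, clusters); interactions needed the adjusted p alone. Groups came from the labels. The series' text counts mice, so libraries were taken as separate mice; p-values measure the spread between these samples.

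All 7 members were named, with the tested CpG of smallest p of each member and comparison, CpGs of non-overlapping groups that differ by at least 10 points, the 2 most alike gene regions per member, and the 2 genes of smallest p of the wider list per genotype comparison. Alternatives covered the scale, offset, mean filter, strands averaged, flank, CpGs averaged, an exact permutation test, leaving out each library, and a replicate block.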

Additional observations from a re-analysis of the deposited data

Results flagged for a closer look

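In 85 sets of 4 to 10 libraries (a member region or named CpG in a group), 5 held 1 library whose gap to its nearest neighbour took more of the group's range than Dixon's 95% limit allows. That is 5.88% of the sets, and chance gives about 1 in 20. In WT at 13 months, 3 of the 5 were replicate 1: 27.1% over the Tnfrsf1a region (others 23.0% to 23.5%), 55.0% over the Il10 region (others 32.6% to 35.0%) and 54.1% at the Il10 CpG at position 131020796 (others 32.0% to 33.3%). The same library was the highest of its group for microglial marker methylation, and the part of this in its values was not tested. HEM replicate 1 at 3 months read 46.4% over the Il1r1 region (others 44.6% to 44.8%). The library labelled WT replicate 3 at 3 months read 86.1% at the Tnf CpG at position 35202985 (others 93.9% to 94.6%).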

How the results depend on the processing

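No member CpG, region or cluster was called under any alternative. The smallest adjusted p was 0.186 among the member regions, the CpGs named by rule and 7 cluster differences, and was not sought among the other member CpGs and clusters. The exact test had little room to call a region, as its smallest possible p was 0.0286 at 4 against 4 and 0.00202 at 8 against 4. Over all features, calls between genotypes at 13 months went from 4 CpGs to 0 with limma on percent, an offset of 5, a mean filter of 10% to 90% or a replicate block, and to 2 with adjacent positions averaged. At 3 months, 12 CpGs were called without the mean filter, 8 with positions averaged, and 1 cluster with the stricter filter. Between ages in WT, limma on percent gave 38 CpGs, 0 regions and 1 cluster, and the test without flank gave 0 regions. The exact test also gave 0 there. With a smallest possible p of 0.0286 over 19292 regions it could hardly call one, so its 0 says nothing about the processing. Between ages in HEM, limma on percent gave 20 CpGs, no mean filter 84, and the replicate block 0; regions of CpGs of 5% to 95% gave 2, and clusters gave 1 with offset 5, without filter or with the stricter filter, and 4 with the block. The interaction gave 0 CpGs with limma on percent, offset 5, the stricter filter or the block, and 12 without filter.

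Whether replicate numbers pair samples cannot be settled from the 2 or 3 numbers shared in a comparison, and the main fits used no pairing. Correlations of deviations between samples of the same number were 0.10, 0.22 and 0.05 at 13 months and 0.05 and -0.11 at 3 months. Between ages in HEM they were 0.03, -0.15 and -0.02. WT ages share 1 number, so no paired analysis was possible there. With the replicate block the region differences of Il1r1 and Il6ra at 13 months became 1.25 and 0.87 points, of Tnf at 3 months 1.81, of Tnfrsf1a and Il1r1 between ages in HEM -0.14 and -0.36, and the Il6ra interaction 0.47. The Tnf CpG at position 35202985 became 2.53.

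Small differences changed sign with the CpGs averaged. Between ages in WT, Tnfrsf1a was -0.11 without flank and -1.78 on CpGs of 5% to 95%; Tnfrsf1b -1.01 and -0.0339, and -0.42 with positions averaged; Il6ra -0.0853 and -0.193. Between ages in HEM, Tnfrsf1a was -0.0469 without flank. The Tnfrsf1a interaction was 0.00857 with positions averaged, 0.0646 without flank and 2.19 on CpGs of 5% to 95%.

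Leaving out 1 library gave 3 to 45 CpGs called at 13 months (45 without WT replicate 1), 0 to 57 at 3 months (57 without WT replicate 1), 63 to 181 CpGs and 0 to 1 regions between ages in WT (181 without WT replicate 6 at 13 months), 0 to 11 clusters and 0 to 6 regions in HEM (without replicates 10 and 11), and 0 to 6 CpGs and 0 to 2 regions for the interaction. Over the same libraries left out, region differences of changing sign ran at 13 months from -0.79 to 0.64 (Il1r1), -0.51 to 0.23 (Il6ra) and -1.07 to 3.13 (Tnf); at 3 months from -0.0484 to 6.70 (Il10) and -0.29 to 1.34 (Il1r1). Between ages they ran in WT from -0.63 to 6.82 (Il10), -0.41 to 0.42 (Il6ra), -0.74 to 0.64 (Tnfrsf1a) and -1.67 to 1.49 (Tnfrsf1b), and in HEM from -0.22 to 0.57 (Tnfrsf1a). Interactions ran from -1.51 to 0.36 (Il1r1), -0.14 to 4.24 (Tnf) and -0.47 to 0.91 (Tnfrsf1a). The Tgfb1 3′ cluster ran from -8.17 to 0.12 between ages in WT, and the Tnf CpG at position 35199220 from -0.0639 to 9.79 at 13 months. The cause of these changes was not tested. Depth is unknown, so precision is that of the spread between 4 to 8 libraries.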
